A study of Rattus norvegicus with 6 samples.

Results

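CC chemokines are small secreted proteins that draw leukocytes into tissue. Of their genes, 5 (Ccl2, Ccl7, Ccl5, Ccl20 and Ccl11) were followed in rat cells that the study names RA-FLS. The name stands for fibroblast-like synoviocytes, the fibroblasts that line the joint, and that identity was not tested here. The 5 genes were taken by name from the 34156 genes of the count table, and they were chosen with earlier results of these data known. RNA-seq had been performed on 6 libraries of wild-type RA-FLS at the 4th passage, labelled with rheumatoid arthritis as the disease state and collected at day 5 according to the labels, although the study's methods describe a shorter incubation. The TNF-α group (3 libraries) received TNF-α at 10 ng/mL, and the TNF-α+EMO group (3 libraries) received the same TNF-α together with emodin (EMO), an anthraquinone of rhubarb, at 80 μmol/L. Both groups therefore carried TNF-α, and no untreated cells were in the series, so the levels of these genes without TNF-α were not measured. The cells were a purchased stock of rat RA-FLS. The study's methods call the libraries biological replicates, but nothing in the labels ties them to separate animals or cultures, so the p-values measure the spread between these libraries.

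Chemokines of the CC class have 2 adjacent cysteines near their amino terminus and act through G protein-coupled receptors on the cells they attract. Ccl2 and Ccl7 call monocytes through Ccr2, Ccl5 calls T cells and monocytes through receptors that include Ccr1 and Ccr3, Ccl20 calls Ccr6-bearing T cells and dendritic cells, and Ccl11 (eotaxin) calls eosinophils through Ccr3. In the inflamed joint, synovial fibroblasts exposed to TNF-α are a known source of Ccl2, Ccl5 and Ccl20, and transcription of these genes is known to use NF-κB and AP-1. Ccl11 is better known as a target of IL-4, IL-13 and STAT6.

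The genes lie at 3 places in the rat genome (Rnor_6.0, coordinates as deposited). Ccl2 (chr10:69412017-69413870), Ccl7 (chr10:69423086-69424979) and Ccl11 (chr10:69434941-69439575) follow each other on the plus strand of chromosome 10, with 9.22 kb between Ccl2 and Ccl7 and 9.96 kb between Ccl7 and Ccl11. Ccl5 (chr10:70739800-70744315, minus strand) lies 1300.2 kb beyond Ccl11, with Ccl9, Ccl6, Ccl3 and Ccl4 among the genes within 200 kb of it. Ccl20 (chr9:88918433-88921001, plus strand) stands apart on chromosome 9. No other gene of the table overlapped any of the 5.

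Promoters were read from RefSeq (assembly GRCr8, a different build from the counts) to show which of the known NF-κB and AP-1 letters precede the followed genes. The table held 2 of the 5 genes, Ccl7 (chr10:67513845-67514144, plus strand) and Ccl20 (chr9:91836909-91837208, plus strand), and each window runs from 250 bases before to 50 bases after the start. Capitals mark matches, on either strand, to the TATA box (TATAAA), the AP-1 site (TGANTCA) and a κB site (GGGNNNNNCC). C/EBP (TTGCNNAA) was also searched.

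Ccl7: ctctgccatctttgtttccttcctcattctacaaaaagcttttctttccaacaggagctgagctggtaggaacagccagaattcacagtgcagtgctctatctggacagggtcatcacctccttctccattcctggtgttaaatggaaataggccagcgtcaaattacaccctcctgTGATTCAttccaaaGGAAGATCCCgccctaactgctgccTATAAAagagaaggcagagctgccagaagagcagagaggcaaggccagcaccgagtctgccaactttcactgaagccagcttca

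Ccl20: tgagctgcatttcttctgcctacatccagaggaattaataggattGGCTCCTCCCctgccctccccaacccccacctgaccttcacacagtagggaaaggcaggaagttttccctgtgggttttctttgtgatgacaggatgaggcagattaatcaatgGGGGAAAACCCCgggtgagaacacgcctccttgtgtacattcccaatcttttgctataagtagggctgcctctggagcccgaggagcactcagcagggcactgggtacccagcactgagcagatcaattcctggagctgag

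The Ccl7 window held a TATA box 34 to 29 bases before the start, an AP-1 match at 73 to 67 and a κB match at 59 to 50 on the other strand. The Ccl20 window held overlapping κB matches on both strands at 91 to 80 bases before the start, and another κB match at 205 to 196. It held neither a TATA box nor an AP-1 match in these letters, and neither window held a C/EBP match. The κB letters are loose, and 47.3% of 33469 promoter windows of 300 bases held them, against 14.2% for the TATA box, 7.33% for AP-1 and 10.6% for C/EBP. These matches describe the sequence and say nothing of binding.

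The libraries held 16813322 to 17794455 counts on genes, and 3 counts correspond to 0.170 to 0.180 CPM (counts-per-million, scaled by TMM). Of the 13614 genes that reached 10 counts in 3 or more libraries, 27.8% were called lower and 19.5% higher with EMO by edgeR's quasi-likelihood test (a log2 fold change beyond 1 in size with an adjusted p below 0.05). In 42.5% of them, all 3 TNF-α+EMO libraries lay below all 3 TNF-α libraries. The groups thus stood far apart over the whole table: 489 genes with 10 or more counts in each TNF-α library stood at 3 or fewer in each TNF-α+EMO library, and the opposite held for 170. All 13 tested mitochondrial mRNAs were also called lower, with a median log2 fold change of -4.32 and a range from -5.98 to -1.11. Whether the groups were otherwise the same cells was not tested. In bulk RNA, fewer cells of a kind and less RNA per cell cannot be told apart.

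With EMO, 4 of the 5 chemokines fell and the fifth, Ccl11, was not detected in either group. Ccl2 fell 21.0-fold but stayed well expressed, Ccl7 fell 224-fold, and Ccl5 and Ccl20 fell to between 0 and 2 counts per library. All 4 tested genes were called lower, none was called higher, and in each the TNF-α+EMO libraries lay below every TNF-α library, against the 27.8% and 42.5% of all tested genes given above. Ccl5 and Ccl20 passed the filter on low counts only through the TNF-α libraries, so the filter fixed their direction and their part of this count is no support. When any 1 TNF-α library was left out, they were no longer tested and 2 genes, Ccl2 and Ccl7, were called lower.

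Ccl2, the main monocyte attractant of the group, had 29731, 30296 and 30856 counts with TNF-α alone, and with EMO the libraries gave 1304, 1382 and 1443. The groups were far apart, and the replicates of each lay close together, with a coefficient of variation of 1.52% with TNF-α and 4.44% with EMO. In normalised counts it fell from 29588 ± 450 to 1410 ± 62.6 (SD, n = 3 each), which on the log2 scale is -4.39 with a standard error of 0.06 (edgeR adjusted p = 1.6e-12). The 95% counting interval of the 21.0-fold difference was 20.3 to 21.7, and like every interval here it covers counting error only.

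Ccl7, the neighbour of Ccl2 that shares the receptor Ccr2, had 11548, 11512 and 11268 counts with TNF-α and 54, 38 and 54 with EMO. Every TNF-α+EMO library was low, and the remaining counts were still above the 3 counts taken as the floor of detection. Its normalised count fell from 11177 ± 180 to 49.9 ± 9.51 (SD, n = 3 each), or -7.80 on the log2 scale with a standard error of 0.11 (edgeR adjusted p = 1.5e-12). The 224-fold difference had a counting interval of 191 to 266, which does not overlap that of Ccl2.

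Ccl5 (RANTES), a T cell attractant, had 3282, 3297 and 2873 counts with TNF-α and 1, 1 and 0 with EMO. All 3 TNF-α+EMO libraries were under the floor. The pooled ratio was 4506-fold, but with 2 counts in the EMO arm its counting interval ran from 1247 to 37213. The fitted value of -11.90 on the log2 scale (SE 0.20, edgeR adjusted p = 3.6e-12) depends on the small prior count that edgeR adds. Its SE was computed from the F statistic, is far narrower than that counting interval and understates the error.

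Ccl20, the ligand of Ccr6, had 1465, 1378 and 1526 counts with TNF-α and 1, 1 and 2 with EMO. Here too no TNF-α+EMO library was above the floor. The pooled ratio was 1041-fold (counting interval 406 to 3824, from 4 counts in the EMO arm). The fitted log2 value was -9.90 (SE 0.17, edgeR adjusted p = 4.6e-12), with the same dependence on the prior count. Its SE, too, is narrower than the counting interval and understates the error. The counting intervals of Ccl5 and Ccl20 overlap, so their folds were not told apart, while both lie above the interval of Ccl7.

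Ccl11 had 0 counts in each of the 6 libraries. At this depth, 0 counts allow up to 3 per library, or 0.168 to 0.178 CPM per kilobase of gene model. Ccl11 was therefore not tested, and a difference between the groups was not detectable.

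**Figure D1:**
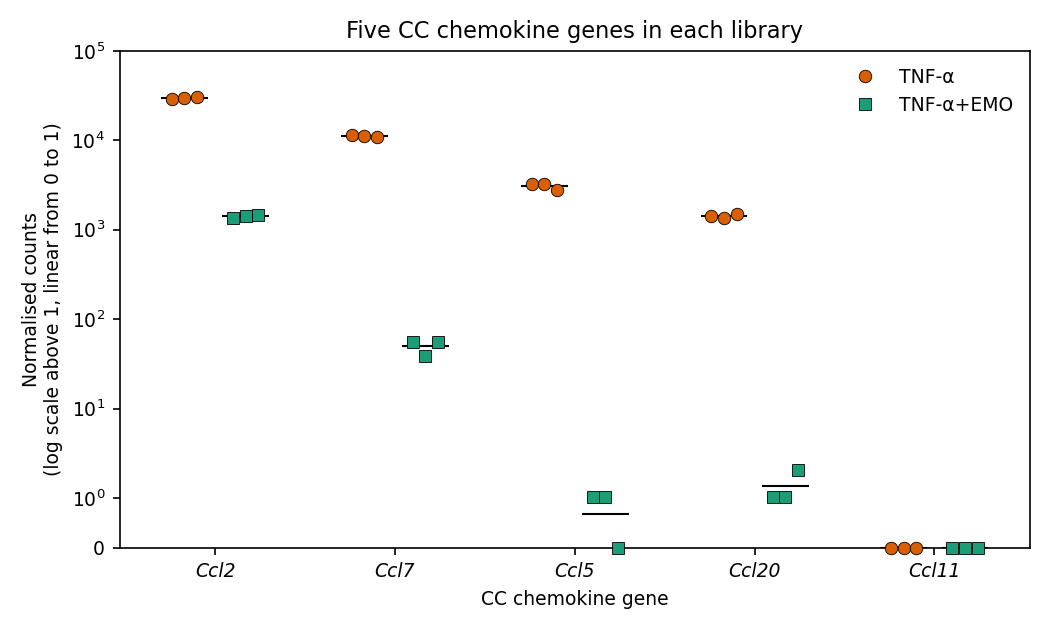
Normalised counts of the 5 chemokine genes in the TNF-α group (3 libraries) and the TNF-α+EMO group (3 libraries); each point is 1 library, the horizontal line is the group mean, and the vertical axis is logarithmic above 1 and linear from 0 to 1. Ccl2 and Ccl7 remain above the floor of 3 counts with EMO, Ccl5 and Ccl20 do not, and Ccl11 is at 0 in every library.

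Levels of different genes were compared as CPM per kilobase of gene model. In the TNF-α group the order was Ccl2 (2061 ± 31.3), Ccl7 (765 ± 12.3), Ccl5 (328 ± 25.8) and Ccl20 (105 ± 5.36), with Ccl11 at 0 (SD, n = 3 each). No neighbours in that order overlapped between libraries. Ccl2 ranked 13th to 14th of the 13614 tested genes on this scale, Ccl7 80th to 83rd, Ccl5 189th to 225th and Ccl20 745th to 809th.

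With EMO the order changed only among genes near the floor. Ccl2 stood at 98.2 ± 4.36 and Ccl7 at 3.41 ± 0.651 CPM per kilobase, followed by Ccl20 at 0.101 ± 0.0431 and Ccl5 at 0.0731 ± 0.0633 (SD, n = 3 each). The libraries of Ccl20 and Ccl5 overlapped, as did those of Ccl5 and the undetected Ccl11. Ccl2 then ranked 1138th to 1185th and Ccl7 8845th to 9570th, and Ccl5 and Ccl20 ranked no higher than 12718th. The deposited FPKM gave the same order in both groups.

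With EMO, nearly all CC ligand mRNA that was left was Ccl2. The CPM summed over all 20 CC ligand genes was 2642, 2651 and 2649 with TNF-α and 82.7, 86.0 and 90.8 with EMO. This 30.6-fold fall separated the groups without overlap (exact two-sided permutation test, p = 0.1, the smallest p that 3 against 3 libraries allow). CC ligands took 0.275% ± 0.00265 of all counts with TNF-α and 0.00831% ± 0.000293 with EMO (SD, n = 3 each), and the followed genes made up 99.4% and 98.3% of them.

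Within that sum, the share of Ccl2 was 65.0% ± 0.917 with TNF-α and 94.8% ± 0.753 with EMO (SD, n = 3 each). Ccl7 went from 24.6% ± 0.421 to 3.36% ± 0.659, Ccl5 from 6.76% ± 0.534 to 0.0472% ± 0.0409, and Ccl20 from 3.12% ± 0.161 to 0.0908% ± 0.0345. The ratio of the neighbours Ccl7 and Ccl2 moved in each library: there were 38.8, 38.0 and 36.5 Ccl7 counts per 100 Ccl2 counts with TNF-α, and 4.14, 2.75 and 3.74 with EMO. This ratio, which no scaling of the libraries can alter, was 10.7-fold lower with EMO.

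**Figure D2:**
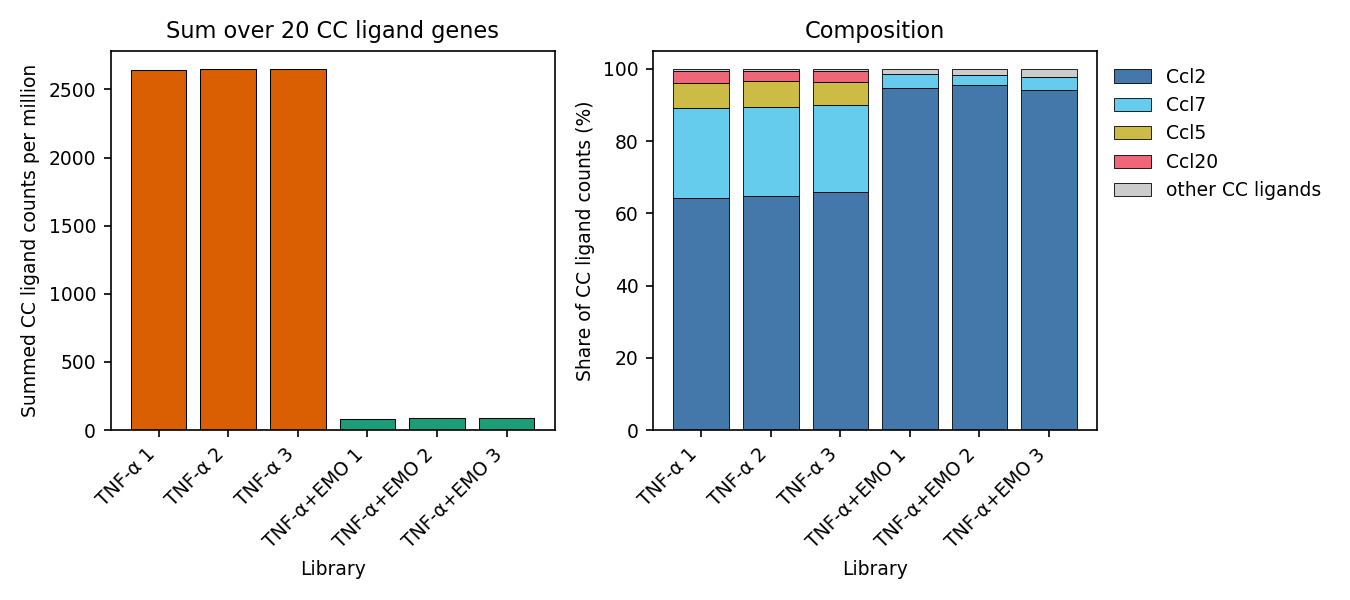
Summed CC ligand level in CPM for each of the 6 libraries, and the percent of CC ligand counts taken by each gene in the same libraries. The TNF-α libraries sum to 2642 to 2651 and the TNF-α+EMO libraries to 82.7 to 90.8, where Ccl2 takes nearly the whole of what is left.

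Of the 20 CC ligand genes, 7 passed the filter on low counts. With EMO, 6 of these 7 were lower (85.7%, against 27.8% of all tested genes), and none was higher. Of the 6, Ccl5, Ccl20, Ccl19 and Ccl9 passed only through the TNF-α libraries and could only come out lower, and without any 1 TNF-α library 2 CC ligands were called lower. The same limit holds for genes of the other lists with under 10 counts in every TNF-α+EMO library. The other 2 that fell were counted in the TNF-α libraries alone. Ccl19, a ligand of Ccr7 that guides dendritic cells and T cells, had 170, 157 and 136 counts with TNF-α and 0 in each library with EMO, at least 49.1-fold lower (adjusted p = 7.5e-08 by edgeR, floor of 3 counts per library). Ccl9, a rodent ligand of Ccr1, had 85, 81 and 64 counts with TNF-α and 0 with EMO, at least 24.4-fold lower (adjusted p = 7.7e-07 by edgeR). Together with Ccl5 and Ccl20 these made 4 CC ligands among the 489 genes that were counted with TNF-α and at the floor with EMO.

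Ccl27, known from skin, was the single tested CC ligand that was not called. It had 9, 13 and 17 counts with TNF-α and 17, 22 and 33 with EMO, with a log2 fold change of 0.95 (SE 0.38, edgeR adjusted p = 0.040), under the fold threshold. It was called higher when TNF-α+EMO replicate 1 or TNF-α replicate 3 was left out, and also with no fold threshold. Its gene overlaps Il11ra1 on the opposite strand, which had up to 2247 counts, and the strand setting of the counting is not given in the sources used here, so its value is uncertain. Under the filter, Ccl22 had 22, 8 and 5 counts and Ccl3 had 2, 2 and 10 with TNF-α, both with 0 in every TNF-α+EMO library. Ccl25, Ccl1 and Ccl6 never exceeded 3 counts, and 8 genes, Ccl11, Ccl12, Ccl4, Ccl17, Ccl21, Ccl24, Ccl26 and Ccl28, were at 0 throughout. The median log2 fold change over the 7 tested genes was -9.23, or -5.62 with the genes at 0 set to their bounds, against -0.01 over all tested genes.

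The CXC, CX3C and XC ligands, the other chemokine classes, fell as well. Of 11 tested genes, 10 were lower (90.9%, against 27.8% of all tested genes) and none higher. Most of the lower genes had under 10 counts in every TNF-α+EMO library, Cx3cl1 and Cxcl12 among them. Such genes could only come out lower, so their part of this count is no support. The median over the 11 tested genes was -6.71 on the log2 scale (-5.49 with genes at 0 at their bounds). Cx3cl1 (fractalkine) had 3132, 2961 and 2727 counts and Cxcl12, the ligand of Cxcr4, 3009, 3016 and 2504 with TNF-α. Neither had a count in any TNF-α+EMO library, at least 935-fold and 904-fold lower. Cxcl16 was the tested gene not called. It was lower too but under the fold threshold, at a log2 fold change of -0.88 (SE 0.06, edgeR adjusted p = 1.5e-07). The summed level of these classes was 905 to 938 CPM with TNF-α and 114 to 118 with EMO.

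**Figure D3:**
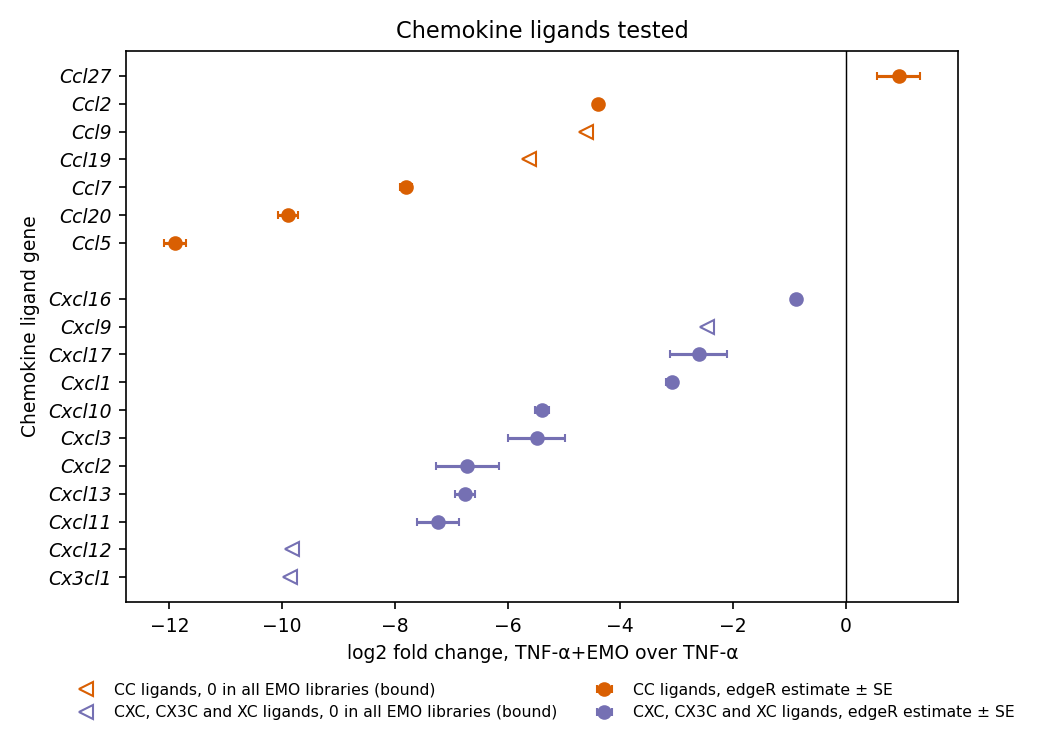
Log2 fold changes (TNF-α+EMO against TNF-α) of the tested chemokine ligands, as edgeR estimates with standard errors computed from the F statistic. Genes that have 0 counts in every TNF-α+EMO library are drawn at their bound. For Ccl5 and Ccl20 the standard errors are narrower than the counting error. Of 18 tested ligands, 16 were called lower and none higher, against 27.8% called lower of all tested genes. Ligands with under 10 counts in every TNF-α+EMO library could only come out lower.

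Receptors of the followed chemokines that are reported here were not detected in these cells. Ccr1, Ccr3 and Ccr6 had 0 counts in every library, and Ccr2 was not analysed here. Of the 21 receptors in the table, 5 were tested and all 5 were lower with EMO, against 27.8% of all tested genes. Apart from Ackr3 and Ackr4, these had under 10 counts in every TNF-α+EMO library. The filter on low counts fixed their direction, so their part of this count is no support. The decoy receptor Ackr3, which removes Cxcl12, had 2010, 2061 and 2099 counts with TNF-α and 50, 63 and 68 with EMO, or -5.02 on the log2 scale (SE 0.10, edgeR adjusted p = 1.5e-11). Ackr4, a scavenger of Ccl19 among others, fell from 266, 304 and 328 counts to 62, 64 and 54, or -2.25 on the log2 scale (SE 0.15, edgeR adjusted p = 1.1e-07). Ccrl2, an atypical receptor that binds chemerin, had 43, 33 and 55 counts with TNF-α and 5, 9 and 4 with EMO (log2 fold change -2.77). Ackr2, the scavenger of inflammatory CC chemokines, had 0 counts in every library, and Ackr1 was not analysed here.

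Genes that carry the TNF-α signal to NF-κB were called lower about as often as all tested genes. Of 28 tested, 8 were lower (28.6%, against 27.8% of all tested genes), 1 was higher (3.57%, against 19.5%) and 19 were not called, with a median log2 fold change of -0.19. Rela, the p65 subunit, had a log2 fold change of 0.10 (SE 0.06, edgeR adjusted p = 0.13), with the sign turned when libraries were scaled by total counts. The receptor Tnfrsf1a had -0.75, Nfkb1 -0.91 and the inhibitor Nfkbia -0.38, all under the fold threshold. The genes that fell include feedback inhibitors that NF-κB itself induces. Tnfaip3 (A20) had 2372, 2312 and 2430 counts with TNF-α and 108, 131 and 92 with EMO, or -4.36 on the log2 scale (SE 0.11, edgeR adjusted p = 5.4e-11). Nfkbiz, a nuclear cofactor of NF-κB, was lower by a log2 fold change of -2.81 (SE 0.11), and the inhibitor Nfkbib rose by 2.31 (standard error 0.07).

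Of 17 tested MAP kinase and AP-1 genes, 4 were lower and 4 higher (23.5% each, near the 27.8% and 19.5% of all tested genes) and 9 were not called. The stress-induced factor Atf3 had 15, 19 and 19 counts with TNF-α and 833, 836 and 847 with EMO, or 5.63 on the log2 scale (SE 0.12, edgeR adjusted p = 1.7e-11). The AP-1 subunits Jund, Fosl1 and Jun rose by 2.50, 2.40 and 1.92 on the log2 scale, while Fos fell by 3.53 from at most 53 counts. The kinases Map3k5 (ASK1), Map2k3 and Mapk14 (p38α) fell by 3.47, 2.14 and 1.20. The Map2k3 counts varied widely with EMO, at 225, 88 and 36 (adjusted p = 0.039 by edgeR).

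Regulators tied to single members were read in the same way. In the interferon arm that is known to drive Ccl5, 5 of 9 tested genes fell (55.6%, against 27.8% of all tested genes). None rose, and the median log2 fold change was -1.38. The kinase Ikbke fell by 3.76 (standard error 0.11), and the interferon regulatory factors Irf7 and Irf1 by 2.93 and 1.38, while Ifnb1 had at most 1 count. The list read for Ccl11 joined genes of the type 2 arm known to drive it (IL-4, IL-13, STAT6) with oncostatin M signalling genes. Of its 6 tested genes, 2 fell (33.3%, against 27.8% of all tested genes), both of them oncostatin M receptor subunits. These were Il6st (log2 fold change -1.82) and Osmr (adjusted p = 1.0e-07 by edgeR). No tested gene of the type 2 arm was called. Il4r and Stat6 were well counted in both groups, with log2 fold changes of -0.17 (standard error 0.08) and -0.02 (standard error 0.06), although Ccl11 was not detected.

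Steps after transcription were covered by shorter lists. Of 8 genes that control AU-rich mRNA, a feature of many chemokine transcripts, 4 fell (50%, against 27.8% of all tested genes) and none rose. Their median log2 fold change was -0.995. Among them the decay factors Zfp36l1 (log2 fold change -4.21, standard error 0.08) and Zfp36l2 (-2.34, standard error 0.17) and the RNase Zc3h12a (-1.94) were lower, and the stabilising factor Elavl1 had 0.05. Of the proteases known to trim chemokines, 5 were tested, 2 fell and 1 rose (40% and 20%, against 27.8% and 19.5% of all tested genes). Mmp9 had 3915, 3646 and 3355 counts with TNF-α and 20, 22 and 19 with EMO (log2 fold change -7.41, SE 0.11, edgeR adjusted p = 2.5e-12), Mmp14 fell by 2.80, and Mmp13 rose by 2.09. Of the heparan sulfate proteoglycan genes, whose sugars hold secreted chemokines near the cell, 8 of 10 tested fell (80%, against 27.8% of all tested genes). None rose, and the median over the 10 was -1.50. The core proteins Gpc6 (log2 fold change -4.02) and Sdc1 (-2.53) led the fall.

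**Figure D4:**
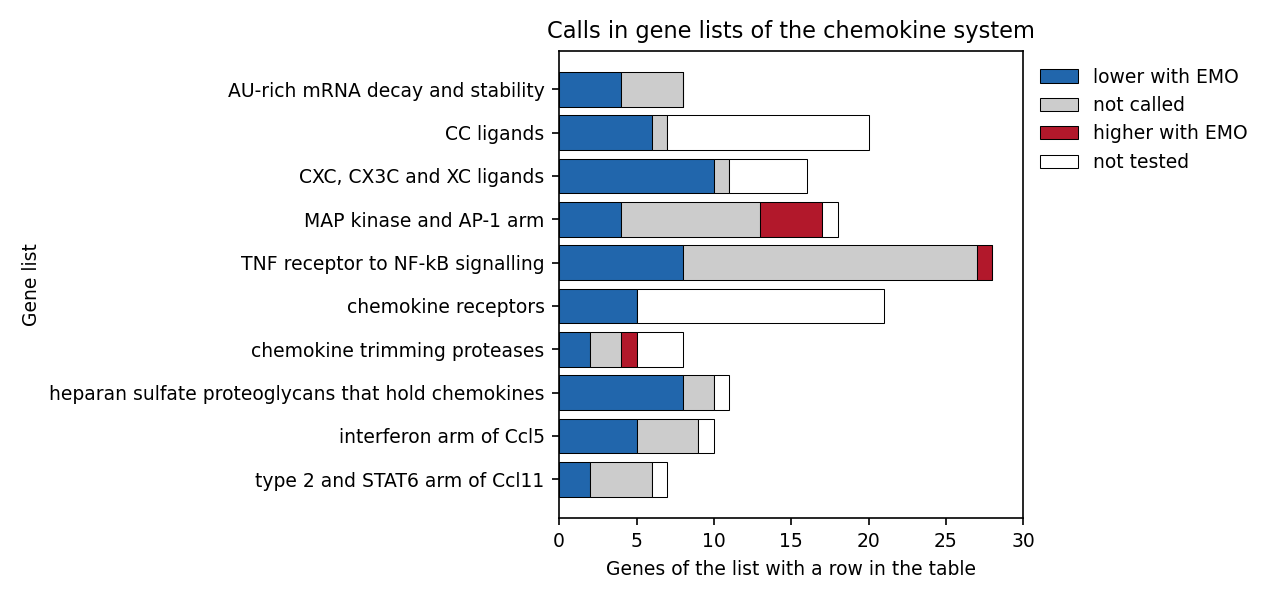
Number of genes of each list that were called lower, called higher, not called or not tested with EMO (the thresholds are those of the text). All 5 tested receptors, 6 of 7 CC ligands and 10 of 11 other ligands were lower. Those with under 10 counts in every TNF-α+EMO library could only come out lower. Of 28 NF-κB signalling genes 8 were lower, a share (28.6%) near the 27.8% of all tested genes.

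The genes whose profile over the 6 libraries was most like that of each member were found by the root mean square difference of centred log2 CPM, after adding 0.174 CPM (3 counts), among 9390 named genes. Nearest to Ccl2 were Gins1, of the DNA replication machinery (difference 0.0496), and Ube2l6, an interferon-induced conjugating enzyme (0.0684). Nearest to Ccl7 were Il1rn, the interleukin-1 receptor antagonist (0.123), and Tgfbi, a matrix protein (0.147). Cxcl12 (0.158) and Cx3cl1 (0.171) were nearest to Ccl5, and the complement protease C1s (0.105) and Slamf8 (0.118) to Ccl20. With 6 libraries in 2 groups, this measure ranks genes mostly by the size of the group difference after the 3 counts are added. Near the floor the added counts shrink that difference, so genes of unlike folds can be paired. Il1rn went from 662 to 0.683 normalised counts, and Ccl7 from 11177 to 49.9.

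Neighbouring genes were examined next. Within 200 kb of Ccl2, Ccl7 and Ccl11, Ccl2 and Ccl7 were the tested genes. Near Ccl5, Ccl9 and Heatr9 fell (Heatr9 by 2.85, standard error 0.39, from 25.4 to 3.41 normalised counts), Taf15 rose by 1.19 (standard error 0.31), and Ap2b1 was not called (log2 fold change -0.34). Ccl9 and Heatr9 passed the filter on low counts only through the TNF-α libraries, which fixed their direction. Over all tested genes, 27.8% were called lower and 19.5% higher. Near Ccl20, Daw1 was the single tested gene and fell by 1.78 (standard error 0.49), from 23.8 to 6.81 normalised counts. Its mean with EMO was thus below the filter's 10 counts.

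Levels of fibroblast marker genes differed between the groups too, and whether the cells changed identity was not tested. The summed level of 10 fibroblast markers was 12567 to 13801 CPM with TNF-α and 2055 to 2214 with EMO. Of 9 tested markers, 7 fell (77.8%, against 27.8% of all tested genes). Col1a1 fell by 4.91 on the log2 scale, Pdgfra had -6.59, Lum was at 235 to 263 counts with TNF-α and 0 with EMO, and Dcn rose from at most 4 counts to at most 33. Lum and Dcn each passed the filter on low counts through a single group, which fixed their direction. Vim, at -0.92, was not called. Of the synovial lining markers, Cdh11 (-6.20), Vcam1 (-8.02) and Htra1 (-1.81) fell and Cd55 (2.31) rose, with a summed level of 1903 to 1983 CPM with TNF-α and 336 to 374 with EMO. Defining markers of that lining were at or near 0 even with TNF-α: Prg4 had at most 4 counts and Pdpn at most 1, and the sublining marker Thy1 at most 7.

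Leukocytes, which also make these chemokines, left little trace in either group. Ptprc (CD45) had at most 1 count, and Cd163 and Tyrobp had 0. The summed macrophage markers, 70.7 to 76.6 CPM with TNF-α and 43.7 to 48.1 with EMO, consisted mostly of Cd14, at 1055 to 1163 and 451 to 536 counts. Of 3 tested macrophage markers, Cd14 fell (-1.10), Itgam rose from at most 1 count to at most 14, and Cd68 was not called (0.75). That is 33.3% lower and 33.3% higher, against 27.8% and 19.5% of all tested genes. Itgam passed the filter on low counts only through the TNF-α+EMO libraries, which fixed its direction. T cell markers summed to 2.61 to 3.29 CPM with TNF-α and 1.02 to 1.85 with EMO, from Lck, which fell, with Cd3g and Cd3d at 0. B and plasma cell markers reached at most 0.889 CPM and mast cell markers at most 0.0567 CPM. Endothelial markers summed to 4.03 to 4.45 CPM with TNF-α and 0.770 to 1.26 with EMO, where Vwf fell, and epithelial markers to 578 to 629 CPM with TNF-α and 114 to 134 with EMO, mostly from Krt8 (-2.28) with Epcam at 0. The part of these marker shifts in the chemokine differences was not tested.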

How the data were processed

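Poly(A)-selected paired-end libraries of rat RA-FLS were sequenced, and per the submitters' processing notes the reads were handled with FastQC and Trimmomatic and aligned with HISAT2 to Rnor_6.0. The counting program, annotation release and strand setting are not given in the sources used here. The authors deposited raw counts per gene, used here for every test, and FPKM, used here only to check the order of levels. The deposited group means, log2 fold changes, p-values and adjusted p-values of the authors' own comparison were not used.

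Genes that reached 10 counts in 3 or more libraries (13614) were normalised by TMM and tested with edgeR 4.0.16 in R 4.3.3 (robust quasi-likelihood F test, no covariate, Benjamini-Hochberg adjustment over all of them), and normalised counts are scaled to the mean effective library size. On simulated counts of 13398 genes, of which 196 were changed, 196 of 196 were recovered with 2% false calls. Each planted change was larger than the fold threshold, every gene was given the same spread between replicates, and calls used the adjusted p alone. In the data 27.8% of tested genes were called lower and 19.5% higher. Recovery and false calls with that many changed genes, with the real spread of each gene or with the fold threshold were not tested. Replicates differed by more than sampling noise (chi-square per gene from 4.74 to 25.5). The highest values, 25.5 and 16.3, were pairs with TNF-α+EMO replicate 3, against 6.64 for TNF-α+EMO replicates 1 and 2. Intervals are exact at 95% confidence and, like the floor of 3 counts, cover counting error only. Standard errors of log2 fold changes were computed as the size of the change over the square root of the F statistic. They are too small for genes near the floor. No pairing of the replicates is stated in the sources used here, so the main fit had no block. DESeq2 1.42.0, other scalings, filters and fold thresholds, a block and leaving out each library were tried.

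The members and lists were chosen with earlier results of these data known. Named were all members, CC ligands with at least 10 counts in any library, the called genes of each list with the lowest and highest fold change, the members' receptors, the nearest profiles and tested genes within 200 kb; other list genes were named after their values were seen. The values of some single list genes are not reported here.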

Additional observations from a re-analysis of the deposited data

How the results depend on the processing

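Across 18 alternatives the log2 fold change ranged from -4.51 to -4.34 for Ccl2 and from -7.92 to -7.63 for Ccl7, and across 15 from -12.25 to -11.36 for Ccl5 and from -10.28 to -9.72 for Ccl20, each past the threshold in all that could be fitted. When a single library was left out, 2 to 4 members and 2 to 6 CC ligands were called lower. No member was called higher, but 1 CC ligand, Ccl27, was called higher without TNF-α+EMO replicate 1 or without TNF-α replicate 3. The low values came from leaving out any 1 TNF-α library, where genes counted in the TNF-α libraries alone no longer pass the filter and Ccl5, Ccl20, Ccl19 and Ccl9 are not tested. With the genes of the full filter kept, a choice made after seeing the data, 4 members and 6 CC ligands were called lower without any 1 library. Total-count scaling moved the median log2 fold change of all genes from -0.01 to -0.12 and changed no member's call. With no filter on low counts, Ccl22 and Ccl3 were also called, making 8 CC ligands.

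Whether the replicate numbers pair the libraries is not stated. Deviations from the group means correlated across genes at -0.00683 to 0.0676 for same-numbered and -0.0701 to 0.0528 for other pairs. With so few libraries these values cannot show or exclude a pairing. With the replicate number as a block, Ccl2 stood at -4.39, Ccl7 at -7.81, Ccl5 at -11.90 and Ccl20 at -9.90, with 4 members and 6 CC ligands lower. The depth sets a floor of 3 counts, so folds of Ccl5 and Ccl20 are known only within wide intervals, and nothing can be said of Ccl11 below it.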
